A study of Bos taurus with 20 samples.

Results

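The 45 genes described here lost at least 50% of their level between 48 and 72 h after bovine satellite cells were moved to low serum. They were chosen by their mean levels from the 27607 genes of the deposited table, of which 14636 passed a filter on low counts. The level is reads of the gene scaled to a common library total (CPM) on library sizes scaled by the trimmed mean of M-values (TMM), averaged over the 4 libraries of a time point, with 0.1 CPM added. A member had at least 2 CPM at 0 h and stood at 72 h at or below 50% of both its 48 h and its 0 h level. It had not already dropped to 25% of the 0 h level at 24 h, had not doubled at 24 or 48 h, stayed at 96 h under 1.5 times its 72 h level, and ended under 2 times its 24 h level. These values come from every library, so the levels and steps of the 45 genes are a description and support nothing by themselves. All 45 passed the low-count filter, since the rule required it.

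Satellite cells are the resident stem cells of skeletal muscle. In culture with ample serum they divide as myoblasts, and on withdrawal of serum they leave the cell cycle, start the muscle programme and fuse into multinucleated myotubes. Transcripts of the growing state are lost on the way, and they can be lost at different times after the change of medium.

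The cells came from Belgian Blue cattle and were grown on collagen-coated flasks with 20% fetal bovine serum (0 h), then switched to 2% serum and sampled at 24, 48, 72 and 96 h. Each time had 4 libraries, replicates A to D, of which A and B were labelled batch 1 and C and D batch 2. The labels call them biological replicates without saying whether they came from separate animals, so the p-values measure the spread between these cultures. Total counts ran from 21100797 to 41998509 per library. The table names genes by Ensembl cattle identifiers alone, and 0 of these could be paired with a symbol, so roles of the genes and the muscle identity of the cultures were not analysed here. In whole cultures, fewer cells of one kind and less RNA per cell cannot be told apart.

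The third day was the steepest day for most of these genes in relative terms, but not in reads. Between 48 and 72 h came the largest fold loss of 33 of the 45 genes, between 24 and 48 h that of 8 and between 0 and 24 h that of 4. The rule required the third-day halving and limited the first-day loss, so these counts follow in large part from the choice. Counted in CPM, the largest loss fell on the first day for 19 genes, on the second for 14 and on the third for 12. In the median gene the first day took 38.4% of the CPM lost from 0 to 72 h, the second 34.9% and the third 24.6%. The median gene had 71.2% of its 0 h level left after 24 h, 39.1% after 48 h, 18.6% after 72 h and 17.7% after 96 h. Most of the genes had therefore been declining for 2 days when the steep relative fall came, and the name of a third-day fall describes the fold and not the bulk of the loss.

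**Figure D1:**
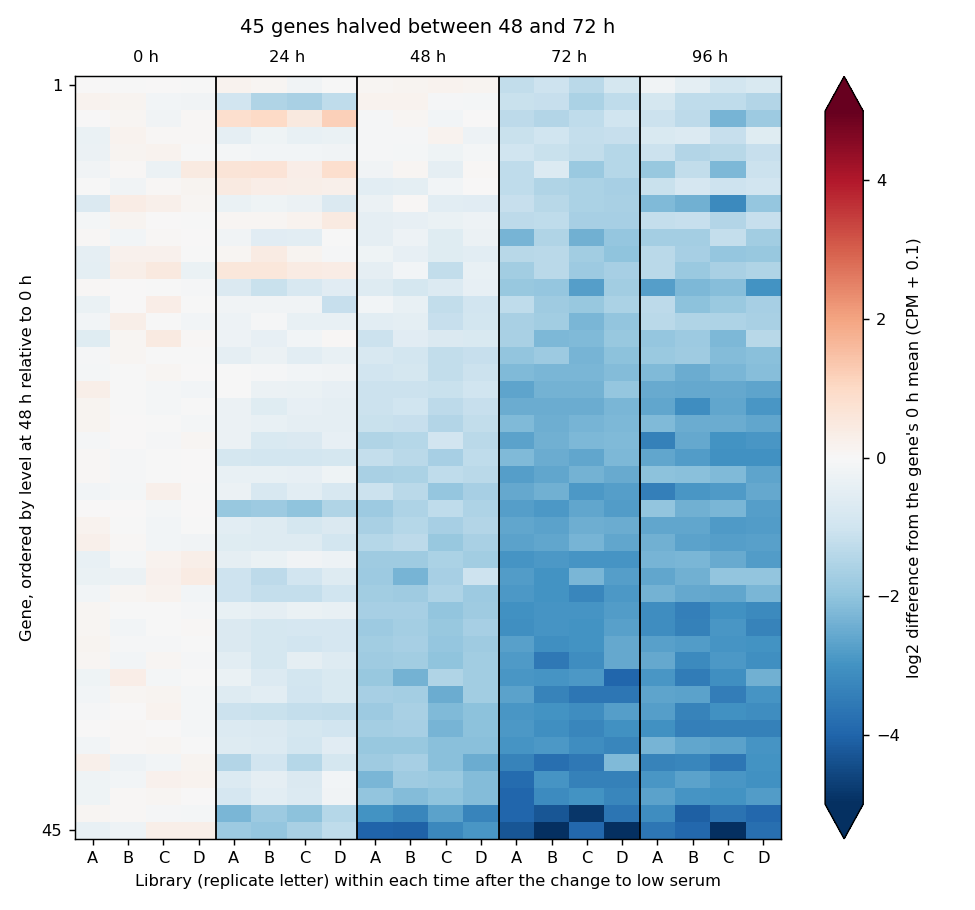
Heat map of the 45 genes (rows, ordered by their 48 h level relative to 0 h) in the 20 libraries (columns, grouped by time). Colour gives the log2 difference from the gene's 0 h mean on CPM plus 0.1, from blue (lower) to red (higher). The columns turn darker blue between 48 and 72 h in every row, and the upper rows have changed little by 48 h.

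A pair of the genes is named for the number of reads they held at 48 h, and a further pair, chosen after their values were seen, for a rise before the fall. ENSBTAG00000024449 held the most reads. Its level was 622, 541, 498 and 534 CPM in replicates A to D at 0 h, 376, 351, 295 and 328 CPM at 24 h, 178, 202, 171 and 197 CPM at 48 h, 89.2, 85.9, 99.5 and 98.8 CPM at 72 h, and 91.5, 90.2, 76.0 and 79.4 CPM at 96 h. The libraries of neighbouring times did not overlap up to 72 h, and those of 72 and 96 h did. The log2 change was -1 for 72 h against 48 h with a standard error of 0.08 (edgeR quasi-likelihood fit, 95% interval -1.16 to -0.84), after -0.70 on the first day and -0.85 on the second. For 96 h against 72 h the change of -0.15 missed the threshold (edgeR adjusted p = 0.127). This gene lay on the edge of the rule, with a ratio of the 72 h to the 48 h mean of 0.5.

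ENSBTAG00000016388 held the second most reads. It measured 135, 150, 138 and 139 CPM in replicates A to D at 0 h, 103, 115, 97.1 and 108 CPM at 24 h, 80.5, 74.4, 60.2 and 63.0 CPM at 48 h, 36.1, 39.5, 28.1 and 33.9 CPM at 72 h, and 39.1, 41.3, 30.8 and 33.0 CPM at 96 h. Replicates A and B lay above C and D at 48, 72 and 96 h, and all 4 libraries at 72 h were below the lowest at 48 h. Its log2 changes were -0.41 on the first day, -0.61 on the second and -1.01 on the third, with standard errors of 0.07, 0.07 and 0.08. The fourth day brought 0.07 with an interval of -0.09 to 0.22. Batch 2 was lower than batch 1 by 0.21 on the log2 scale (log2 difference -0.21, standard error 0.05, edgeR adjusted p = 0.00378).

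ENSBTAG00000018446 had the largest called rise of the first day among the 45. Its level was 4.71, 4.96, 4.09 and 4.76 CPM in replicates A to D at 0 h, 8.33, 9.20, 6.56 and 10.7 CPM at 24 h, 4.39, 4.98, 4.15 and 4.69 CPM at 48 h, 1.83, 1.59, 1.86 and 2.27 CPM at 72 h, and 2.15, 1.82, 0.850 and 1.25 CPM at 96 h. The 24 h libraries all stood above those of 0 h, the 48 h libraries overlapped those of 0 h again, and the 72 h libraries were below them all. The log2 changes were 0.91, -0.94 and -1.27 for the first 3 days, with standard errors of 0.15, 0.15 and 0.18.

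ENSBTAG00000046110 held the most reads among the genes with a called first-day rise. It measured 46.1, 54.2, 49.7 and 48.3 CPM in replicates A to D at 0 h, 53.5, 53.5, 56.4 and 68.2 CPM at 24 h, 36.4, 36.8, 39.3 and 41.2 CPM at 48 h, 20.1, 20.2, 15.7 and 15.4 CPM at 72 h, and 21.8, 22.4, 18.1 and 22.1 CPM at 96 h. The 0 h and 24 h libraries overlapped, and its first-day change of 0.22 was near the threshold (edgeR adjusted p = 0.0356). The adjusted p was 0.0667 without replicate A, 0.0656 without replicate C and 0.241 without replicate D, where the change was 0.12. The third-day change was -1.10 with a standard error of 0.10, and within the batches it was -0.86 in batch 1 and -1.37 in batch 2.

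**Figure D2:**
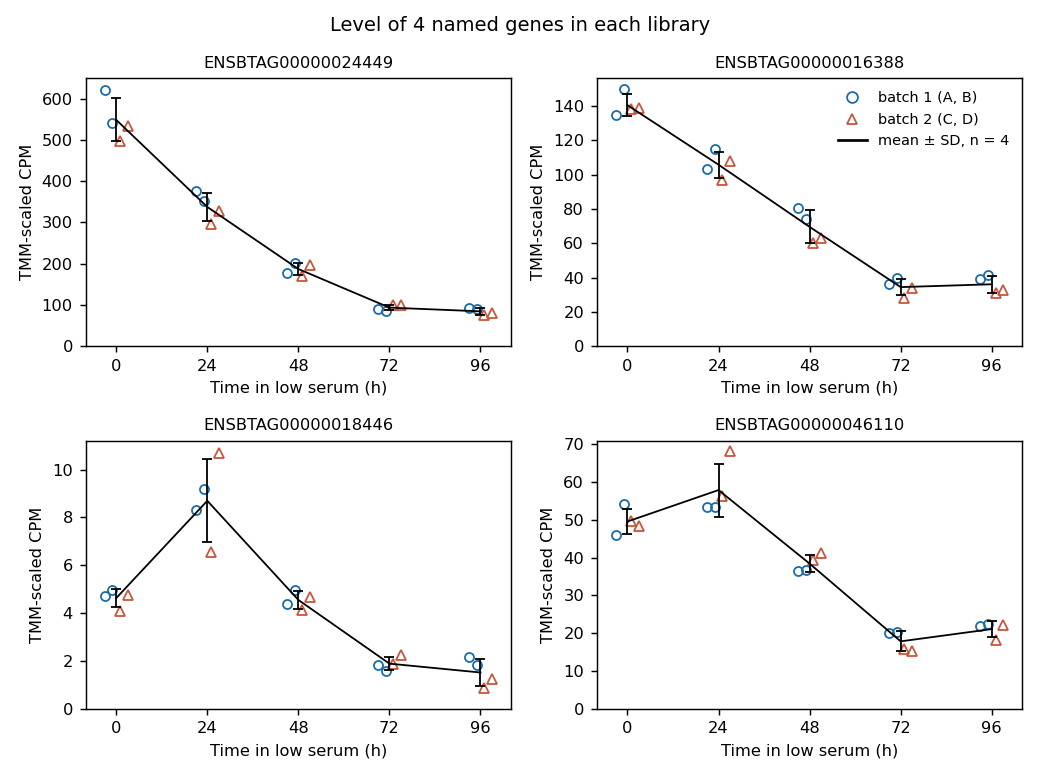
Levels of 4 of the 45 genes in TMM-scaled CPM (vertical axis, linear from 0) against hours in low serum, one panel per gene. Circles are batch 1, triangles batch 2, and the line with bars is the mean ± SD of 4 libraries. The upper genes decline from 0 h on, the lower genes are highest at 24 h, and all 4 level off after 72 h.

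The 45 genes reached the third day by different routes. The first-day comparison called 32 of them lower and 4 higher at 24 h than at 0 h, against 34.5% and 31.7% of all 14636 genes, at an adjusted p under 0.05. The second-day comparison called 36 lower and 2 higher at 48 h than at 24 h, against 31.9% and 31.4% of all genes. The rule bounded both steps, so nothing is read from these counts. Combining both days, 28 genes were lower on each, and their median level in percent of 0 h was 62.2 (24 h), 29.9 (48 h), 13.2 (72 h) and 13.8 (96 h). The share of all genes on each combined course was not counted, so nothing is read from the number of genes per course.

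The other courses held the 17 remaining genes. The 4 genes called higher at 24 h were called lower again at 48 h, with median levels of 139% and then 87.0% of 0 h, and stood at 38.8% at 72 h. In 5 genes neither day was called, and their level at 48 h ran from 64.6% to 110% of 0 h, with 25% to 46.2% at 72 h. In 4 genes the first day was not called and the second was lower, in 2 genes the first day was lower and the second not called. The remaining 2 were lower at 24 h and higher again at 48 h.

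One of these 2 genes dipped and returned in full. It averaged 6.75 ± 0.901 CPM at 0 h, 2.65 ± 0.577 CPM at 24 h, 6.96 ± 0.762 CPM at 48 h, 2.71 ± 0.391 CPM at 72 h and, at 96 h, 2.86 ± 0.552 CPM (SD over 4 libraries each). Its log2 changes were -1.34 on the first day and 1.39 on the second, each with a standard error of 0.12, so that its level was low, high and low again on successive days. The other moved less, with means at the 5 times of 7.61 ± 1.08, 5.96 ± 0.409, 7.29 ± 0.919, 3.44 ± 0.223 and 4.33 ± 0.696 CPM in order.

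Sorted by what was left at 48 h, 7 genes stood above 80% of their 0 h level, 9 between 50 and 80%, 25 between 25 and 50%, and 4 at or below 25%. At 72 h the medians of these sets were 42.0%, 31.0%, 14.9% and 7.73%, and at 96 h 43.2%, 30.5%, 14.4% and 10.8%. The order of the sets was the same at all 3 times, which the rule nearly fixed by its bounds on the third day and on the last.

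The third-day fall itself had a narrow range. The log2 change for 72 h against 48 h ran from -1.99 to -1 with a median of -1.23, a ratio of 0.427, while the median over all genes was -0.01. All 45 genes were called lower, against 20.8% of all genes, and in 42 of the 45 all 4 libraries at 72 h lay below all 4 at 48 h, against 15.9% of all genes. The rule used this contrast and required such a fall. The 95% interval of the change lay wholly below -1 for 10 genes and included -1 for 35, so for most of them a fall of somewhat less than 2-fold lies within the error of the fit.

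Precision followed the reads. In the 18 genes above 20 CPM at 0 h the standard errors of the third-day change ran from 0.08 to 0.17, with changes from -1.42 to -1. In the 13 genes under 5 CPM at 0 h they ran from 0.15 to 0.67, with changes from -1.99 to -1.16. The largest fall, -1.99, belonged to the gene with the fewest reads, which averaged 0.235 CPM at 48 h and 0.0579 CPM at 72 h and had a standard error of 0.67. In 7 genes at least 1 library held fewer than 10 counts at 72 h. The median spread of the 45 genes, as a coefficient of variation over the 4 libraries, was 9.55%, 12.1%, 13.1%, 14.9% and 17.4% in order of time, against 9.27%, 8.78%, 9.96%, 11.0% and 9.16% over all genes.

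The limit on the 72 h to 48 h ratio passed through a continuum. The 3 genes just inside it had ratios of 0.5, 0.499 and 0.497 and the 3 genes just outside it had 0.5, 0.501 and 0.501. The pair on either side of the line, both at 0.5 after rounding, averaged 93.3 CPM at 72 h and 187 CPM at 48 h inside, and 147 CPM at 72 h and 295 CPM at 48 h outside. On the 96 h side the nearest members reached 1.48, 1.47 and 1.44 times their 72 h level and the nearest excluded genes 1.52, 1.57 and 1.61 times. In all, 12 genes failed only that last bound, and 1750 genes met every condition except the third-day halving.

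The same levels divided the 1750 genes from the 45, so their courses are set side by side as a description, with no test of a difference. The 45 genes had median log2 changes of -0.49 for the first day, -0.82 for the second, -1.23 for the third and 0.06 for the fourth. The 1750 genes had medians of -0.66, -0.70, -0.28 and -0.01. A gene at or below 50% of 0 h at 72 h without the third-day halving had to stand below its 0 h level at 48 h. This was not required of the 45 genes, so the rule itself shaped these medians. For 96 h against 0 h the medians were -2.63 for the 45 genes and -1.58 for the 1750.

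**Figure D3:**
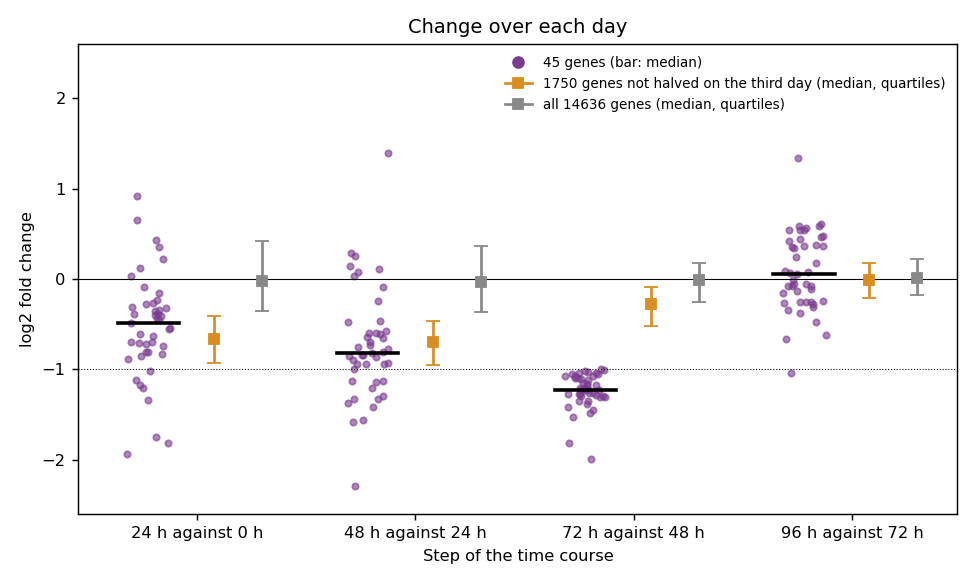
The log2 fold change of each day (vertical axis) for the 45 genes (points, bar at the median), for 1750 genes that met every other condition (orange, median and quartiles) and for all 14636 genes (grey, median and quartiles). Of the third-day points 44 lie at or below the dotted line at -1 and that of ENSBTAG00000024449 lies just above it, since the rule acted on mean levels and not on these fitted changes. The points of the fourth day lie around 0.

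Most of the genes were not called changed after 72 h, 30 of the 45. At 96 h 9 of the 45 were called higher than at 72 h and 6 lower, 20.0% and 13.3%, against 19.3% and 18% of all genes, so the shares were near the background. The called rises ran from 0.34 to 0.59 and the called falls from -0.24 to -1.05 on the log2 scale, where the rule capped rises at 1.5-fold. The split was 8 higher and 7 lower with the size factors of DESeq2's method (RLE) and 5 higher and 10 lower with library sizes alone, which moved the median of all genes to -0.07. Together 15 of the 45 genes were called, against 8 without replicate B and 8 without replicate D, while calls over all genes numbered 5459, against 3596 without B and 4977 without D. For 96 h against 0 h all 45 were called lower, against 40.2% of all genes, and in all 45 the 96 h libraries lay below the 0 h libraries, against 36.3%. These calls follow in large part from the rule.

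Together the 45 genes held few of the reads of a library. Their summed level was 1970 ± 47.9 CPM at 0 h, 1350 ± 60.4 CPM at 24 h, 772 ± 53.3 CPM at 48 h, 361 ± 11.4 CPM at 72 h and, at 96 h, 352 ± 28.0 CPM (SD over 4 libraries each). ENSBTAG00000024449 contributed 27.8% of this sum at 0 h and 23.9% at 96 h. Without it the sums were 1430 ± 21.6, 1010 ± 26.5, 585 ± 43.6, 267 ± 14.7 and 268 ± 21.6 CPM. The libraries of successive times did not overlap from 0 to 72 h, and those of 72 and 96 h did.

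Libraries of one time point differed in the level of these genes. The rule used time means, so the deviations of single libraries from them were not used. In replicate C the median deviation of the 45 genes from their time mean, on log2 of CPM plus 0.1, was -0.06, -0.13, -0.08 and -0.06 at the 4 times from 24 to 96 h, against 0.01 at 0 h. In that replicate 12, 16, 10 and 13 of the 45 genes lay above their time mean at 24, 48, 72 and 96 h. In replicate A at 96 h 35 of the 45 lay above it, with a median deviation of 0.16. The share of all genes above their time mean was not counted, so nothing is read from these counts. Negative medians were not limited to replicate C, with -0.08 in replicate D at 96 h and -0.06 in replicate A at 0 h.

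The 1750 genes that missed the third-day halving alone leaned the same way in replicate C from 24 h on and in replicates A and D at 96 h. Their median deviation in replicate C was -0.04, -0.06, -0.02 and -0.02 at the times from 24 to 96 h, and at 96 h it was 0.06 in replicate A and -0.03 in replicate D. In replicate A the 45 and the 1750 genes had opposite signs at 0 h (-0.06 and 0.04), 48 h (0.05 and -0.01) and 72 h (0.08 and -0.01). Signs were also opposite in replicate C at 0 h, D at 48 h and B at 72 h. Over all genes the medians ran from -0.02 to 0.02. No test compared the 45 genes with the others in this respect.

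The TMM factor of replicate C was the lowest at 24, 48, 72 and 96 h, with 0.948 at 48 h against 0.972 to 0.976 and 0.837 at 96 h against 0.858 to 0.861 in the others. A lower factor gives a higher CPM from the same count and library total. The part of the factor in the deviations was not tested. Without replicate C 44 of the 45 genes were called lower at 72 h than at 48 h, with a median change of -1.2. The choice of the genes nearly fixed this, since the rule used the other replicates too. Calls in either direction over all genes numbered 5165 without replicate C.

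**Figure D4:**
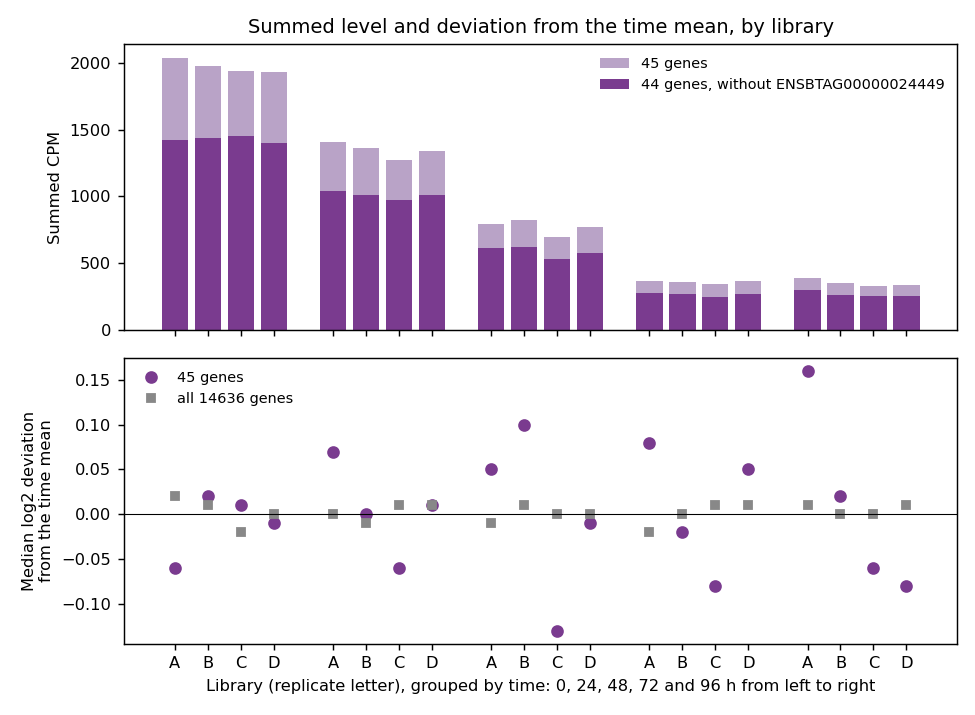
Upper panel, the summed CPM of the 45 genes in each library (light bars) and of 44 of them without ENSBTAG00000024449 (dark bars), from 0. Lower panel, the median log2 deviation of the 45 genes (circles) and of all genes (squares) from their time means. Circles of replicate C lie below 0 at 24, 48, 72 and 96 h, and at 96 h that of replicate D lies lower still.

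A fall chosen on the same libraries is overstated by selection, so the rule was also run within one batch and the fall measured in the other. The 71 genes that met the rule in batch 1 had a median log2 change for 72 h against 48 h of -1.12 there and of -0.83 in batch 2, a ratio of 0.561. All 71 were lower in batch 2, 62 of them by the test in the 10 libraries of that batch (87.3%, edgeR adjusted p under 0.05), against 12.4% of all genes. At 2-fold or more, 20 of the 71 (28.2%) had fallen in batch 2, against 4% of all genes. The genes that met every other condition in batch 1 but not the halving, 1637 in number, had a median of -0.23 in batch 2, where 27.6% were called lower and 1.89% had fallen 2-fold.

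The reverse choice gave a similar picture. The 62 genes that met the rule in batch 2, 28 of them among the 45, had a median change of -1.11 there and of -0.99 in batch 1. These were again a ratio of mean levels and a fitted change. In batch 1, 61 were lower and 49 were called lower (79.0%, edgeR adjusted p under 0.05), against 12.7% of all genes. At least 2-fold lower were 31 (50%), against 3.38% of all genes. The 1775 genes that met all but the halving in batch 2 had a median of -0.28, with 38.8% called lower and 3.55% 2-fold lower. Which genes met the full rule was less stable than the fall, since 16 genes met it in both batches. Of the 45, these 16 met it in each batch alone, 27 in one batch and 2 in neither.

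**Figure D5:**
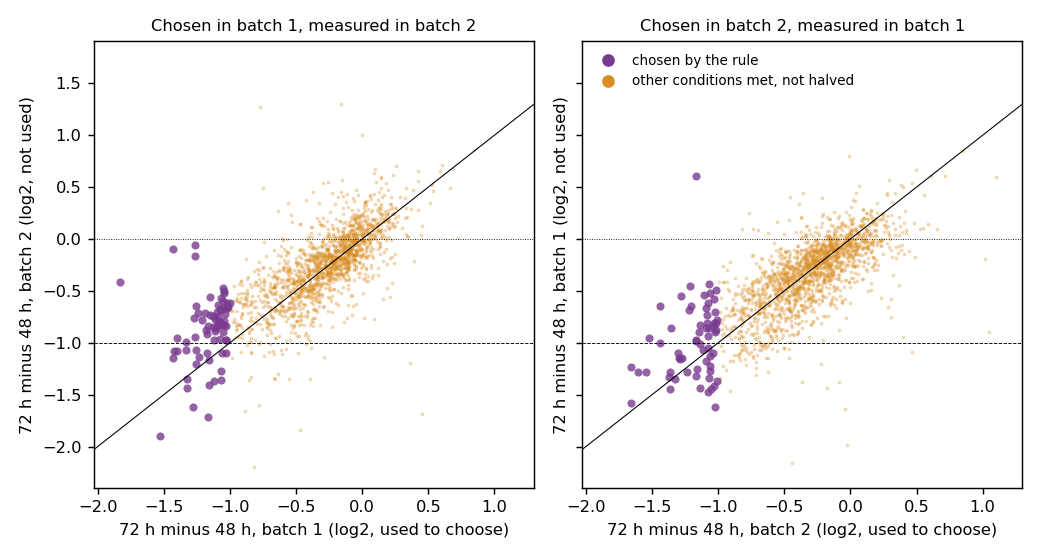
The log2 change for 72 h against 48 h in the batch used to choose genes (horizontal axis) and in the batch not used (vertical axis), for genes chosen by the rule (purple) and genes that met every other condition (orange). The solid line marks equal values and the dashed line a 2-fold fall. Horizontal values are log2 ratios of mean levels with 0.1 CPM added, and vertical values are fitted changes without it. Most purple points lie above the solid line and below 0, with medians of -0.83 and -0.99 in the batch not used.

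Within the batches, the 45 genes of the full rule were lower at 72 h than at 48 h in every case. The median change was -1.22 in batch 1 and -1.15 in batch 2, and 28 genes had fallen at least 2-fold in both. The rule used the libraries of both batches, so these falls follow in large part from the choice of the genes. The difference between the batches in this step was called for 0 of the 45 genes, against 0% of all genes (edgeR batch by time term, adjusted p under 0.05). At an unadjusted p under 0.05 it was 5 of 45 (11.1%), against 3.35% of all genes. DESeq2 called 0 of the 45. The differences ran from -1.2 to 1.74 on the log2 scale with a median size of 0.25, against 0.12 over all genes. Their median standard error was 0.28, so differences of about that size would have gone undetected in many of the genes.

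The whole time course differed between batches for 0 of the 45 genes, against 0.00683% of all genes, 1 gene in number. At an unadjusted p under 0.05 it was 5 of 45 against 9.72% of all genes, and DESeq2 called 0. Without the filter on low counts the same test called 5 of the 45 and 1154 genes in all. Of the members, ENSBTAG00000046110 had the smallest unadjusted p for the third-day step, 0.0026, with a batch 2 minus batch 1 difference of -0.51 and a standard error of 0.15.

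The level differed between the batches for 8 of the 45 genes (17.8%), against 19.2% of all genes, so the share was near the background. In batch 2, 2 of the 45 were higher and 6 lower than in batch 1, against 10.9% and 8.36% of all genes. The differences ran from -0.30 to 0.57 on the log2 scale with a median size of 0.10, the same as over all genes. The count was 3 without replicate A, 3 without replicate B, 3 without replicate C and 5 without replicate D. Calls over all genes fell alongside, to 1329, 823, 1366 and 1618 without replicates A, B, C and D, against 2816 with all libraries.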

How the data were processed

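The authors' deposited table holds whole-number read counts per gene, not normalized, for 20 libraries of polyA RNA. The kit for stranded mRNA and reads of 75 bp are given per the labels' protocols. STAR 2.7, featureCounts and the build bosTau9 are listed per the submitters' processing notes. The sources used here do not give parameters, strand setting or annotation.

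Steps from the counts onward used edgeR 4.0.16 under R 4.3.3. The filter was filterByExpr by time (minimum count 10, minimum total 15), and the scaling TMM. A robust quasi-likelihood model with time and batch terms was fitted to 20 libraries, with Benjamini-Hochberg adjustment over all 14636 genes kept and calls at an adjusted p under 0.05. Batch by time terms, fits within 1 batch and DESeq2 1.42.0 were further fits. Standard errors are the log2 change divided by the root of F. Scripts were tested on simulated data. CPM is not per length, so levels are compared within a gene.

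The members and lists were chosen with earlier results of these data known. Pathway and marker lists and promoter motifs were not tested, because 0 identifiers matched a symbol. Without symbols the rule named the 2 members with the most reads at 48 h, and the other 2 were chosen after their values were seen. Replicate letters were not taken to pair libraries.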

Additional observations from a re-analysis of the deposited data

Results flagged for a closer look

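Of 30 sets of 4 replicate values checked by Dixon's test, which flags about 1 in 20 by chance, 1 held a library far from the other 3. ENSBTAG00000046110 stood at 18.1 CPM in replicate C at 96 h, where the other replicates lay between 21.8 and 22.4 CPM.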

How the results depend on the processing

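Which genes met the rule depended on the settings. It took 91 genes with library sizes alone (all 45 among them), 27 with 0.5 CPM added in place of 0.1 (26 of the 45) and 71 in batch 1 alone. With RLE size factors 41 of the 45 remained, without ENSBTAG00000024449 and ENSBTAG00000016388, and 22 of the 45 remained whichever replicate letter was left out. Without one letter the calls among the 45 ranged from 8 to 14 for 96 h against 72 h and from 3 to 5 between batches. The batch by time test over all steps called 5 of the 45 and 1154 of all genes when the low-count filter was omitted, and 22 of all genes with DESeq2, against 1 of all genes in the reported fit. The cause was not tested. The other 76 of 86 recomputed counts stayed within 1.5 times the reported value. Genes called higher on the first or second day were not among these counts. Without one letter they ranged from 2 to 4 on the first day, against 4 reported. On the second day they ranged from 1 to 3, against 2 reported. The library sizes alone, added after seeing the data, gave a median third-day change of -1.33 with the median of all genes at -0.11. The third-day falls of the 4 named genes kept direction and call in 10 of 10 alternatives each, which their choice nearly fixed. Depth limits the 7 genes with under 10 counts in a library.

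With the replicate letters as a block in place of batch, 45 genes were called lower for 72 h against 48 h, which their choice nearly fixed. Over all genes 5896 were called in either direction. For 96 h against 72 h 15 of the 45 were called in either direction, against 5290 of the 14636 genes. No count of calls among the 45 moved by over 1.5 times. Deviations of libraries with the same letter had a median correlation of 0.15 (range -0.37 to 0.55 over 40 pairs). Correlations with libraries of the other times were also averaged by letter, A to D. For 7 of 20 libraries the own letter had the highest mean.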
